A study of Homo sapiens with 17 samples.

Results

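The transcriptome of Ishikawa cells given recombinant human PSAT1 was compared with that of untreated cells after 24 h. Ishikawa is a cell line from a human endometrial adenocarcinoma used to model endometrial epithelial cells, and cancer cells need not match the healthy tissue. The libraries were chosen by the column names of the count table. Columns named PSAT1 (n = 3) were set against columns named Control (n = 3), which makes 6 of the 17 libraries of the series, and 2 libraries that received only a vehicle called Nap served as a second reference. The other 9 libraries were 3 treated with progesterone (P4) in Nap, 3 with Nap and ethanol (70% ethanol in the labels) and 3 whose columns are named PSAT1_P4. All cultures were grown in medium with charcoal-stripped serum, and control cultures stayed in that basal medium.

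The labels of 6 libraries contradict each other. The 3 samples whose columns are named PSAT1 carry titles and a treatment label that name PSAT1 together with P4, and the 3 samples whose columns are named PSAT1_P4 carry titles and a treatment label that name PSAT1 alone. The columns named PSAT1 are called PSAT1-column libraries here for that reason, and every statement about them holds for the column names only. Neither the labels nor the study's methods give the dose or source of the recombinant protein, or say what Nap is. Whether the protein was taken up by the cells was not measured.

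PSAT1, phosphoserine aminotransferase 1, is a cytosolic enzyme that catalyses a step of serine synthesis between PHGDH and PSPH. Serine feeds glycine and the folate cycle, which carries one-carbon units for nucleotide synthesis and methylation. In many cells a shortage of amino acids or stress in the endoplasmic reticulum raises translation of the transcription factor ATF4, whose targets include the serine synthesis genes, amino acid transporters and aminoacyl-tRNA synthetases. P4 acts through a nuclear receptor, and in the endometrium it prepares the epithelium for implantation.

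Total counts over the 8 libraries of these 3 groups lay between 11941642 and 19704493, and 3 counts, the smallest number read as detected, stood at 0.152 to 0.251 normalized counts scaled to library size (CPM). Such floors cover counting error only. The mitochondrial ribosomal RNA MT-RNR2 took 20.2% to 27.1% of the counts, with the highest share in control replicate 2. All 8 epithelial markers, such as EPCAM and KRT8, had at least 10 counts in each of the 8 libraries. Their summed level was 1318 to 1394 CPM in PSAT1-column libraries and 1341 to 1594 CPM in controls. Of the endothelial and immune markers, CDH5 and CD3E were at 0 counts in all 8, and the summed levels in PSAT1-column libraries were at most 1.61 CPM for the endothelial list and 1.03 CPM for the immune list. The 8 stromal markers summed to 437 to 598 CPM in PSAT1-column libraries and 436 to 556 CPM in controls. Pairs of replicates differed by 2.60 to 18.3 chi-square units per degree of freedom, so none was a second reading of the same library. These values cannot tell separate cultures from separate preparations of the same culture. The labels call replicates biological, but do not say what separated them.

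Because the titles of the PSAT1-column samples name P4, the genes that respond to P4 were measured in them first. These genes were taken from libraries outside the comparison. Between P4 and Nap with ethanol, 157 of 12854 protein-coding genes (1.22%) were higher by over 2 log2 units and 105 (0.817%) were lower by as much, at an adjusted p under 0.05 in edgeR's quasi-likelihood test. The 157 higher genes summed to 1576, 1492 and 1582 CPM in PSAT1-column libraries 1, 2 and 3, and to 1626, 1525 and 1622 CPM in the controls. In the P4 libraries the same sum was 8245, 11460 and 10430 CPM. The PSAT1-column libraries thus stood close to the controls and far below the P4 libraries. In the libraries whose columns are named PSAT1_P4, and whose titles name PSAT1 alone, the sum was 10010, 11150 and 10880 CPM. The 105 lower genes summed to 897 to 1070 CPM in PSAT1-column libraries and 908 to 1139 CPM in controls, against 130 to 235 CPM with P4 and 139 to 193 CPM in PSAT1_P4-column libraries.

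**Figure D1:**
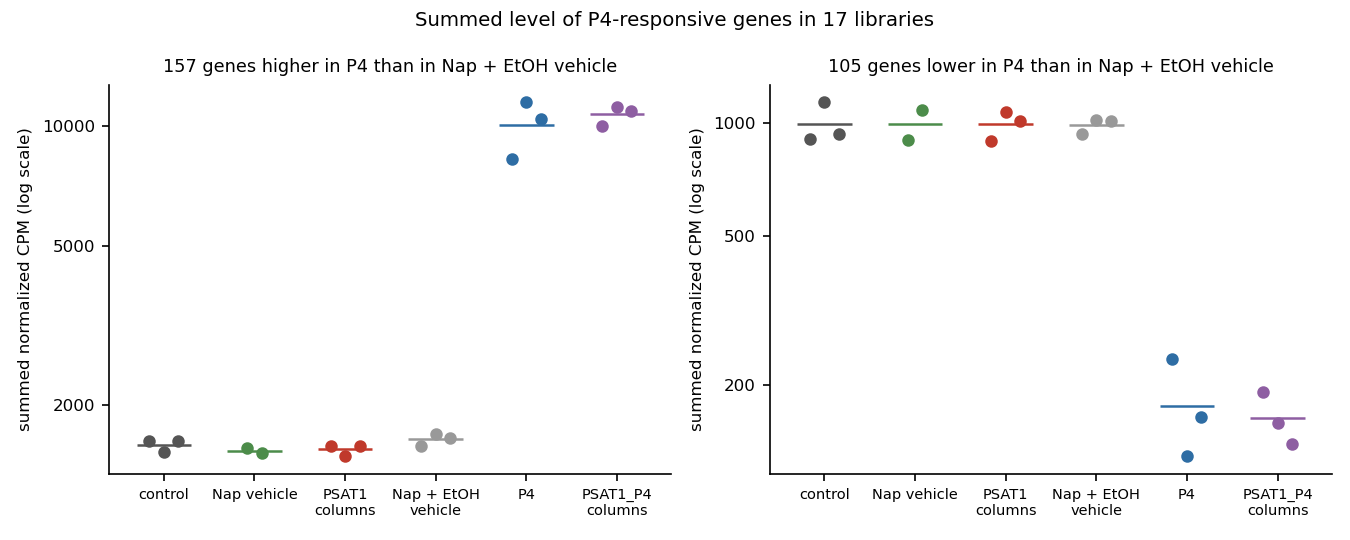
Summed normalized CPM, on a log axis, of the genes higher (left) and lower (right) by over 2 log2 units with P4, in each of the 17 libraries, with a line at each group mean. PSAT1-column libraries lie at 1492 to 1582 CPM on the left, beside the controls, and PSAT1_P4-column libraries at 10010 to 11150 CPM, beside the P4 libraries.

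Single genes of these lists serve as examples and add no separate evidence. They were among those of largest P4 fold change either way, at a mean count of at least 100. GDF15, a secreted stress-induced growth factor of the TGF-beta superfamily, was at 2.76, 3.29 and 2.99 CPM in PSAT1-column libraries and at 2.90, 3.33 and 3.15 CPM in controls. It was at 113, 146 and 144 CPM in P4 libraries. HKDC1, a hexokinase-domain protein, had 5 to 7 counts in the PSAT1-column libraries and 4 to 5 in controls, too few to be tested, but 216 to 503 counts with P4. MEOX1, a homeobox transcription factor that was lower with P4, was at 67.2 to 73.7 CPM in PSAT1-column libraries, 72.5 to 100.0 CPM in controls and 3.29 to 10.9 CPM in P4 libraries. Of the 157 higher genes 113 could be tested between PSAT1-column and control libraries, and of the 105 lower genes 102. None of either list was called. Their median log2 fold changes were -0.03 and 0.04, where the P4 medians were 2.54 and -2.42. The 95% interval reached 0.5 of the gene's own P4 log2 fold change in 0 of 113 higher genes and 5 of 102 lower genes. The share of these genes at an unadjusted p under 0.05 was 5.31% and 3.92%.

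The transcript of PSAT1 itself (ENSG00000135069.14, chromosome 9, 78297143 to 78330093, GRCh38) was abundant in every library. PSAT1-column libraries held 283, 239 and 275 CPM, controls 302, 269 and 304 CPM and Nap libraries 297 and 260 CPM. The ranges of the 3 groups overlapped. Against control the log2 fold change was -0.12, with a 95% interval from -0.29 to 0.05 (adjusted p = 0.854, edgeR's quasi-likelihood test). P4 libraries were at 329 to 461 CPM and PSAT1_P4-column libraries at 347 to 434 CPM. Added protein does not appear in RNA counts, so these values do not bear on whether it was present.

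Across the transcriptome, 17214 genes were tested between PSAT1-column and control libraries, and 12990 of them were protein-coding. No protein-coding gene was called (0%) at an adjusted p under 0.05 by edgeR's quasi-likelihood test, with p-values adjusted after Benjamini and Hochberg, no noncoding gene was called, and DESeq2 called 0 genes as well. The smallest adjusted p was 0.836. With the replicate number as a block in edgeR's fit 29 genes were called, 19 of them protein-coding, and 0 with a GC spline added as well. An unadjusted p under 0.05 was reached by 680 protein-coding genes (5.23%), with 440 higher and 240 lower in PSAT1-column libraries. That number rested on single libraries, as it was 244 without PSAT1-column replicate 3, 441 without control replicate 3 and 1266 without control replicate 1. Grouped by the sample titles in place of the column names, an alternative chosen after seeing the data, the comparison of PSAT1 with control had 8172 of 12757 protein-coding genes called.

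The measured differences were small. The median absolute log2 fold change was 0.08, 90% of protein-coding genes lay between -0.20 and 0.28, and only 2 lay beyond 1 log2 unit. Those genes were named after their values were seen. BCL3, a nuclear IkB-family cofactor of NF-kB, was at 1.09, 1.54 and 1.32 CPM in PSAT1-column libraries and at 0.656, 0.739 and 0.525 CPM in controls (7 to 23 counts). C3orf20 was at 0.834, 0.269 and 0.359 CPM against 1.53, 0.581 and 0.975 CPM. Both genes had few reads, and a Nap library reached 1.19 CPM for BCL3 and 0.339 CPM for C3orf20, inside the PSAT1-column range. The 95% interval of the log2 fold change lay within 1 unit of 0 for 12563 of 12990 genes (96.7%) and within 0.5 units for 10267 (79.0%). For genes whose interval reached past 1 unit, a 2-fold change lay within what these cultures allow. With P4 against Nap and ethanol, fitted with the same tool and the same number of libraries, 7487 of 12854 protein-coding genes were called at a common dispersion of 0.00635, next to 0.00636 here.

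**Figure D2:**
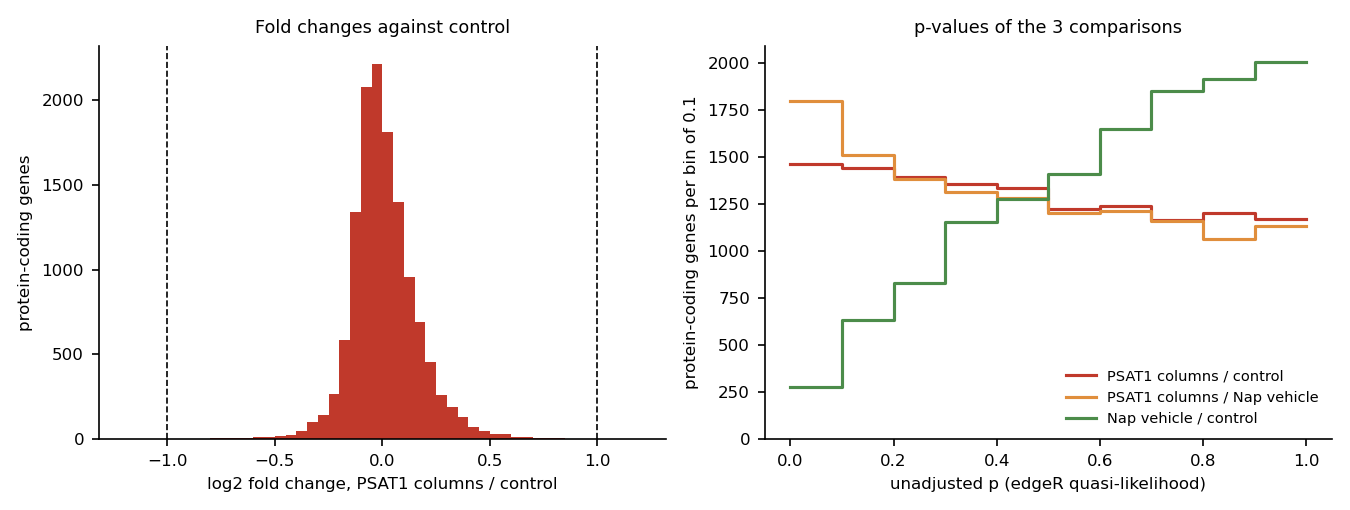
Left, number of protein-coding genes by log2 fold change of PSAT1-column over control libraries, with dashed lines at 1 log2 unit either way. Right, number of genes per bin of 0.1 of the unadjusted p for the 3 comparisons, where PSAT1 against control has 1462 genes in the lowest bin and 1172 in the highest, PSAT1 against Nap has 1797 in the lowest bin and Nap against control has 279.

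Distances between libraries gave no separation of the groups. The median absolute log2 difference over 12542 protein-coding genes was 0.137 between a control and a PSAT1-column library (9 pairs), 0.136 between controls (3 pairs) and 0.106 between PSAT1-column libraries (3 pairs). The closest pair of all 8 libraries was control 1 and PSAT1-column 1, at 0.0773. Principal component 1 held 30.6% of the variance and placed PSAT1-column libraries at -9.88, 10.2 and -1.78, controls at -8.84, 15.1 and -5.31 and Nap libraries at -10.8 and 11.3. On component 2 (22.5%) the PSAT1-column libraries were the lowest on average, at -3.52, -8.12 and -12.9, with control 1 at -4.84 among them and control 3 at 15.3.

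The 3 PSAT1-column libraries did not overlap the 3 controls in 1487 protein-coding genes (11.4%). They lay outside all 5 control and Nap libraries in 811 genes (6.24%), above them in 243 (1.87%) and below them in 568 (4.37%). The genes of smallest p among these are described next, 10 in each direction. None passed the adjusted threshold, at an adjusted p of 0.836 each in edgeR's test. Without a filter on low counts KLF16, PCSK7 and HNRNPA1 did pass (adjusted p = 0.019, 0.0245 and 0.0388, edgeR). With the replicate number as a block KLF16, PCSK7, HSF1, HNRNPA1, CACTIN and FAM83H passed (adjusted p = 0.00428, 0.00569, 0.0187, 0.0364, 0.0439 and 0.0486, edgeR). None passed with a GC spline added to the block.

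Among genes with higher values, KLF16, a Krueppel-like zinc finger transcription factor (ENSG00000129911.9), was at 17.2, 16.3 and 19.7 CPM in PSAT1-column libraries, at 14.0, 12.2 and 9.98 CPM in controls and at 14.0 and 13.8 CPM with Nap. The lowest PSAT1-column value stood above the highest control by less than the controls differed among themselves. Its log2 fold change was 0.57, with a 95% interval from 0.31 to 0.82. PCSK7, a proprotein convertase that cleaves secreted precursors, was at 54.2, 51.9 and 58.9 CPM against 47.8, 40.3 and 37.5 CPM in controls, a log2 fold change of 0.41. CACTIN, a protein of the spliceosome, was at 20.5, 23.8 and 22.8 CPM against 17.1, 17.3 and 15.7 CPM, a log2 fold change of 0.44. By the rule that chose them, all genes of this group stood above all 5 references in the PSAT1-column libraries. HSF1, the master transcription factor of the heat shock response, had a log2 fold change of 0.40. The 12 tested heat shock genes, which it can activate, had a median of -0.02, none called and 0 at an unadjusted p under 0.05.

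The other genes of this group had log2 fold changes from 0.28 to 0.69. They were FAM83H, which organizes keratin filaments (0.33), MRTFA, an actin-regulated coactivator of serum response factor (0.40), NFIX, a nuclear factor I transcription factor (0.37), KCTD13, an adaptor of the cullin-3 ubiquitin ligase (0.38), TNKS1BP1, which binds tankyrase (0.28), and FSCB, a protein of the sperm fibrous sheath (0.69). FSCB was the least abundant, at 4.36 to 5.57 CPM against 2.62 to 3.90 CPM in controls. FAM83H, at 66.2 to 73.6 CPM in PSAT1-column libraries, was lower with P4 (33.8 ± 3.55 CPM, SD, n = 3) than with Nap and ethanol (67.5 ± 1.81 CPM), and at 34.8 ± 2.94 CPM in PSAT1_P4-column libraries (n = 3).

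Among genes with lower values, HNRNPA1, a splicing regulator that packages nascent RNA, was at 135, 130 and 136 CPM in PSAT1-column libraries, at 184, 167 and 161 CPM in controls and at 152 and 153 CPM with Nap. The Nap libraries stood between the other groups. The log2 fold change was -0.34, with a 95% interval from -0.49 to -0.18. HNRNPA1 has many processed pseudogenes, so its unique counts are uncertain. SUMO2, a ubiquitin-like modifier, was at 104, 115 and 109 CPM against 128, 132 and 127 CPM in controls and 130 and 131 CPM with Nap, with a log2 fold change of -0.22. Here the 5 reference libraries lay close together, from 127 to 132 CPM.

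The other 8 lower genes had log2 fold changes from -0.35 to -0.23. NDUFA4, a subunit of respiratory complex IV (-0.23), and ATP5F1E, the epsilon subunit of ATP synthase (-0.23), serve oxidative phosphorylation. THOC7 of the mRNA export complex THO (-0.26) and LEO1 of the PAF1 transcription elongation complex (-0.26) act in mRNA production. VPS26A of the retromer (-0.27), the tRNA ligase complex member FAM98B (-0.31), the J-domain protein DNAJC18 (-0.35) and the intraflagellar transport protein HSPB11 (-0.28) made up the rest. NDUFA4 shows the size of these differences, at 82.7, 79.8 and 80.3 CPM against 93.7, 100.1 and 93.8 CPM in controls.

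**Figure D3:**
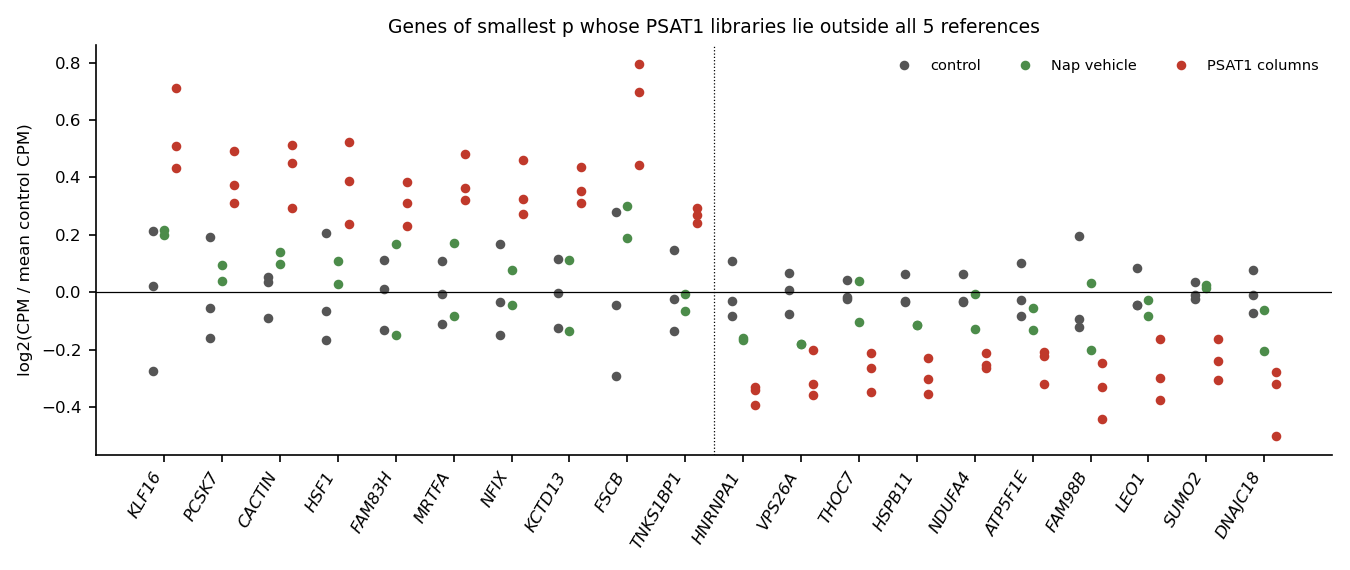
Each point is 1 library, plotted as log2 of its CPM over the mean control CPM, for the 10 higher (left of the dotted line) and 10 lower genes of smallest p whose PSAT1-column libraries lie outside all 5 references. The points of KLF16 and HNRNPA1 show fitted log2 fold changes of 0.57 and -0.34. None of the 20 genes passed the adjusted threshold in the fit with the low-count filter and no block.

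GC content moved with these differences. The transcripts of the 440 genes higher at an unadjusted p under 0.05 had a median GC content of 60.6%, those of the 240 lower genes 41.7% and those of all genes tested 47.9%. Across protein-coding genes the log2 fold change and GC content had a Pearson correlation of 0.402, over genes that share the same 6 libraries. The median log2 fold change went from -0.07 in 2174 genes of at most 40% GC to 0.13 in 1844 genes above 60% GC. By library, the difference between GC-rich and GC-poor genes, relative to the mean of the 5 references, was 0.09, 0.23 and 0.33 log2 units in PSAT1-column libraries 1, 2 and 3. It was 0.12, 0.15 and -0.22 in controls 1, 2 and 3, and -0.05 and 0.004 in the Nap libraries. Replicates 2 and 3 of the PSAT1 column thus stood above all references and control 3 below all. In a fit with a GC spline, added after seeing the data, the log2 fold change of FAM83H was 0.17 in place of 0.33, that of TNKS1BP1 0.18 in place of 0.28 and that of HSF1 0.26 in place of 0.40. PCSK7, at 0.41, and FSCB, at 0.69, stood as in the fit without the spline.

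Serine and one-carbon genes, the pathway of PSAT1, held 22 genes, 21 of them tested. Not 1 was called, 9 had a positive and 12 a negative log2 fold change, and the median was -0.02 where that of all protein-coding genes was -0.01. PHGDH, which takes the first step of serine synthesis, was at 172, 162 and 170 CPM in PSAT1-column libraries and 172, 184 and 157 CPM in controls. PSPH, which takes the last step, was at 49.1, 43.0 and 46.7 CPM against 48.2, 41.6 and 47.8 CPM. Both enzymes overlapped between groups, and their 95% intervals were -0.17 to 0.15 and -0.15 to 0.21 log2 units. SHMT2, which makes glycine from serine in mitochondria, was at 326, 318 and 337 CPM against 335, 374 and 326 CPM. MTHFD2, of the mitochondrial folate cycle, was at 280, 245 and 271 CPM against 285, 257 and 298 CPM. All 21 genes had intervals within 1 log2 unit of 0, from -0.42 at the lowest bound to 0.63 at the highest. With P4, 18 of the 21 genes were called, where 7487 of all 12854 protein-coding genes were. SHMT2 and MTHFD2 were among the 18, at log2 fold changes of 1.02 and 1.78.

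The ATF4 stress list had 18 of 19 genes tested, with 0 called and 0 at an unadjusted p under 0.05. Its median was -0.00 (from -0.17 to 0.22), 9 genes being positive and 9 negative. ATF4 itself was at 321, 276 and 303 CPM in PSAT1-column libraries and 306, 340 and 284 CPM in controls. DDIT3, the stress factor CHOP, was at 6.29, 6.45 and 6.52 CPM against 6.07, 8.39 and 7.05 CPM. TRIB3, a pseudokinase that restrains ATF4, was at 19.4, 22.5 and 23.5 CPM against 20.3, 18.0 and 19.4 CPM. These 3 overlapped with the controls. With P4 all 18 were called, at a median log2 fold change of 2.00, where 7487 of all 12854 protein-coding genes were called. Aminoacyl-tRNA synthetases had 20 genes tested, none called, and a range from -0.13 to 0.14. Of 12 amino acid transporters 1 had an unadjusted p under 0.05, SLC7A5, which imports large neutral amino acids. It was at 462, 523 and 569 CPM against 518, 355 and 389 CPM in controls, which overlap, with a log2 fold change of 0.32 (95% interval 0.04 to 0.60).

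The 33 gene lists together held 514 distinct genes, of which 458 were tested and 0 were called. An unadjusted p under 0.05 was reached by 24 (5.24%), against 5.23% of all protein-coding genes. The interval lay within 1 log2 unit of 0 for 448 (97.8%). The lists with the lowest medians were cytosolic ribosomal proteins (-0.13, 18 of 21 negative) and mitosis genes (-0.10, 15 of 18 negative), and those with the highest were immediate early genes and Wnt targets (0.13 each, with 9 of 13 and 8 of 11 positive). None of these lists had a called gene, and the only members at an unadjusted p under 0.05 were the ribosomal RPL5 and RPS18. RPL5 was at 524, 466 and 495 CPM against 556, 627 and 556 CPM.

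**Figure D4:**
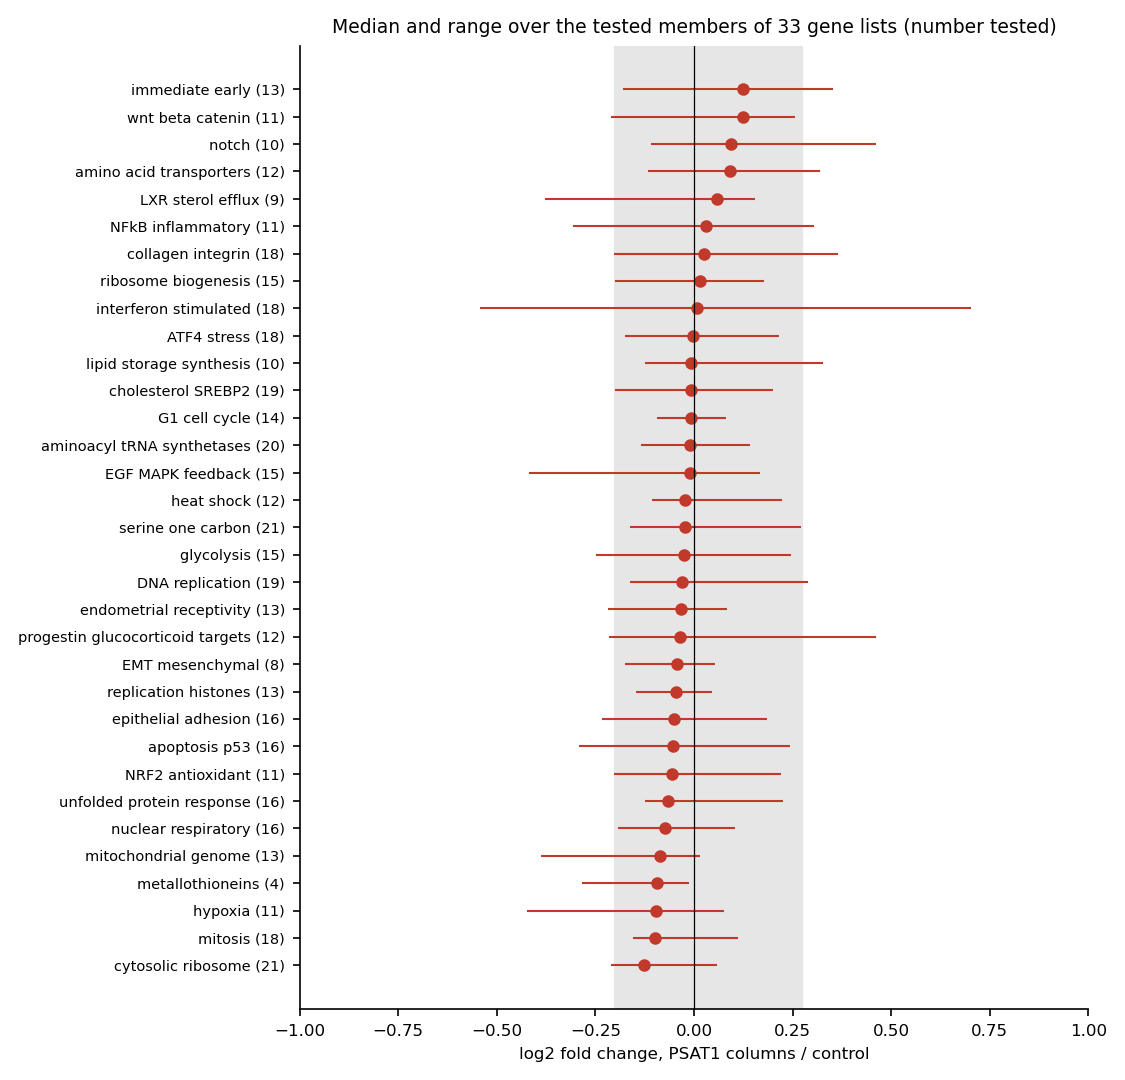
Median (point) and range (line) of the log2 fold change of PSAT1-column over control libraries for the tested members of each list, with the number tested in brackets and a grey band at the range of the middle 90% of single protein-coding genes (-0.20 to 0.28), to be set against the lines and not the medians. Medians run from -0.13 for cytosolic ribosomal proteins to 0.13 for immediate early genes.

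Notch genes held the list member of smallest p. NOTCH1, a receptor of cell contact signals, was at 122, 175 and 169 CPM in PSAT1-column libraries, 126, 107 and 109 CPM in controls and 107 and 123 CPM with Nap. PSAT1-column libraries 2 and 3 stood above all 5 references, and library 1 stood among them. The log2 fold change was 0.46 (95% interval 0.18 to 0.74, adjusted p = 0.836, edgeR). Without PSAT1-column replicate 1 NOTCH1 was called at 0.61 (adjusted p = 0.0112, edgeR), together with PLEC and HSPG2. It was called without a filter on low counts as well (adjusted p = 0.000257, edgeR). With the replicate number as a block NOTCH1 was called at 0.45 (adjusted p = 0.000388, edgeR), but not with a GC spline added. PLEC links the cytoskeleton to junctions and HSPG2 is the basement membrane proteoglycan perlecan. The transcripts of these 3 genes have GC contents of 62.9% to 67.0%. JAG2, a Notch ligand, was at 28.9, 36.9 and 36.4 CPM against 25.2 to 30.9 CPM in controls.

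Progestin and glucocorticoid target genes, 12 of 14 tested, had 0 called and a median of -0.03. HSD11B2, which inactivates cortisol, was the only one at an unadjusted p under 0.05, at 5.77, 5.17 and 5.26 CPM against 4.43, 3.59 and 3.90 CPM. With P4 it moved the other way, at a log2 fold change of -1.52. Endometrial receptivity genes had 13 tested, 0 called and 1, IGFBP3, at an unadjusted p under 0.05, with 312, 279 and 292 CPM against 318, 372 and 321 CPM. The 18 collagen and integrin genes had 0 called and 4 at an unadjusted p under 0.05, of which 3 had positive fold changes (ITGB4, COL1A1 and COL18A1) and 1 a negative one. Lipid synthesis gave FASN, the fatty acid synthase, at 358, 465 and 504 CPM against 398, 334 and 338 CPM, again with replicate 1 among the controls. NF-kB and inflammatory genes had 11 of 23 tested and interferon-stimulated genes 18 of 22, all without a call and with 0 at an unadjusted p under 0.05. Bounds of the interferon list ran from -1.22 to 1.48 log2 units, so that for some of its genes a 2-fold change lay within the interval.

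Against the Nap vehicle (n = 2), which shares the PSAT1-column libraries with the first comparison, 17399 genes were tested and 13049 were protein-coding. None of the protein-coding genes was called (0%) by edgeR and 1 by DESeq2. An unadjusted p under 0.05 was reached by 975 (7.47%), 692 higher and 283 lower in PSAT1-column libraries, and the groups did not overlap in 3257 (25%). The 975 were 391 without PSAT1-column replicate 3 and 468 with a GC spline. Groups of 3 and 2 libraries fail to overlap more readily than groups of 3 and 3. For Nap against control, also groups of 2 and 3, the share was 10.7%. Why the shares differ was not tested. The gene DESeq2 called was RPS16, a ribosomal protein of the small subunit, at 63.0, 51.0 and 44.7 CPM in PSAT1-column libraries, 29.9 to 33 CPM with Nap and 59.8, 37.2 and 33.1 CPM in controls. The controls spanned both groups. FBRSL1 (log2 fold change 0.60), the microtubule regulator TACC3 (0.36) and the splicing cofactor SRRM2 (0.31) had the smallest p among higher genes, each at an adjusted p of 0.266 in edgeR's test. Lower genes of small p included SUMO2 (-0.25) and the proteasome subunit PSMD10 (-0.27). With the replicate number as a block RPS16, TACC3 and FBRSL1 were called (adjusted p = 2.7e-27, 2.98e-05 and 0.000452, edgeR). SRRM2, PSMD10 and SUMO2 were called there as well (adjusted p = 0.00124, 0.00542 and 0.0107, edgeR). With a GC spline added to the block, only RPS16 and TACC3 among these stayed called (adjusted p = 2.17e-25 and 0.00893, edgeR).

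The noncoding genes called against Nap were 2, and both were high in the Nap libraries. AC104306.1 (ENSG00000213849.3) is a processed pseudogene on chromosome 3, from 32507955 to 32508325 on the plus strand of GRCh38, and overlaps no other annotated gene. Processed pseudogenes are copies of an mRNA pasted back into the genome. Its annotated transcript of 371 bases was aligned with the 378-base coding sequence of RPL31, a ribosomal protein of the large subunit encoded on chromosome 2, and 343 of 371 aligned positions (92.5%) were identical. The first 240 bases of both are shown, because the reads of this gene can be told from those of RPL31 in this stretch only at the 21 positions in capitals, where the pair differs.

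AC104306.1: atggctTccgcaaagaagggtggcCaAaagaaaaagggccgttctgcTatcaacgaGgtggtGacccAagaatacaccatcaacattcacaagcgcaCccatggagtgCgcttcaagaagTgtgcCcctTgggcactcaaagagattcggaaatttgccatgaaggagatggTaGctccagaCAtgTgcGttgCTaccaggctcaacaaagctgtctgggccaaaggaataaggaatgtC
RPL31: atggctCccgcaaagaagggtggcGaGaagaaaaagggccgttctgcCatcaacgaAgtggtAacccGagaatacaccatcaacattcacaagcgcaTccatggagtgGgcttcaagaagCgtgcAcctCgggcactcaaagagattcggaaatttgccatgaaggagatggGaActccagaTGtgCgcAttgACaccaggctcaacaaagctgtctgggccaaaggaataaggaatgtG

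Each of the 297 windows of 75 bases, the length of the reads, in AC104306.1 was found in no other GENCODE 29 transcript. AC104306.1 had 25, 23 and 22 counts in PSAT1-column libraries and 283 and 420 counts with Nap. On the CPM scale these were 1.60, 1.54 and 1.32 against 22.4 and 28.5, which is -4.09 on the log2 scale, with a standard error of 0.20 (adjusted p = 2.49e-10, edgeR's quasi-likelihood test). Controls 1, 2 and 3 were at 21.8, 2.01 and 1.42 CPM, so 1 of the controls was as high as the Nap libraries and the other 2 as low as the PSAT1-column libraries. The split therefore did not follow the groups, and against control the log2 fold change was -2.51 with a 95% interval from -6.65 to 1.62 (adjusted p = 0.849, edgeR). In the remaining 9 libraries of the series it was between 1.55 and 4.92 CPM. With all 6 groups in the fit AC104306.1 was not called, and without control 1 Nap stood above control by 3.87 log2 units (adjusted p = 6.2e-14, edgeR). RPL31 itself was at 279, 266 and 274 CPM in PSAT1-column libraries, 303 and 254 CPM with Nap and 274, 345 and 287 CPM in controls, with the libraries of high AC104306.1 spread through that range.

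RN7SKP185 (ENSG00000199683.1), a copy of the small nuclear RNA 7SK on chromosome 20, from 37975156 to 37975481, was at 3.33, 3.09 and 2.39 CPM in PSAT1-column libraries and 6.73 and 11.3 CPM with Nap. The difference was -1.63 log2 units, with a standard error of 0.23 (adjusted p = 0.0288, edgeR), and the call was lost without PSAT1-column replicate 2 or 3, without Nap replicate 2 or with a minimum of 10 counts in each sample. Controls were at 3.28, 3.22 and 1.65 CPM, so that here the Nap libraries stood alone, and Nap against control gave a log2 fold change of 1.72 at an adjusted p of 0.224. DESeq2 called 5 genes against Nap in all, these 2, RPS16, RN7SKP71 and the pseudogene AC026436.1. RN7SKP71 was at 30.98, 45.72 and 39.06 CPM in PSAT1-column libraries, above all 5 references. It was at 19.94 and 23.21 CPM with Nap and 30.16, 27.24 and 19.12 CPM in controls. Against control its log2 fold change was 0.604 (adjusted p = 0.836, edgeR). It was called against control without a filter on low counts (adjusted p = 5.31e-05, edgeR). With the replicate number as a block it was called (adjusted p = 4.78e-06, edgeR), but not with a GC spline added. AC026436.1 was at 17.6, 5.24 and 14.7 CPM in PSAT1-column libraries, 0.396 and 0.271 CPM with Nap and 0.219, 11.3 and 20.5 CPM in controls, another split across the control group. Among noncoding genes against control, none was called in the fit with the low-count filter and no block. In that fit AC103703.1 had the smallest p among higher genes (log2 fold change 1.62, 17 to 18 counts against 2 to 10). The small Cajal body RNA SCARNA7 had it among lower genes (log2 fold change -0.34, 78.0 to 84.2 CPM against 94.3 to 118 CPM). SCARNA7 was called without a filter on low counts at an adjusted p of 0.0406 in edgeR's test. With the replicate number as a block SCARNA7 and AC103703.1 were called (adjusted p = 0.0364 and 0.0486, edgeR), but not with a GC spline added.

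**Figure D5:**
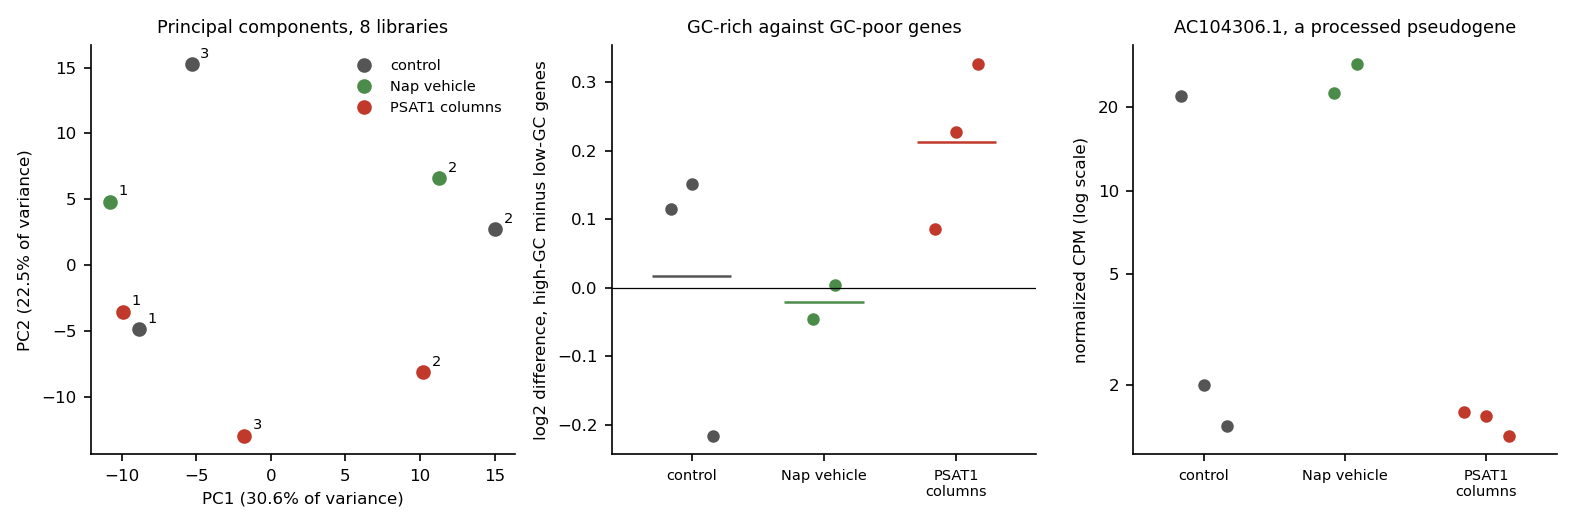
Left, principal components 1 and 2 of the 8 libraries, numbered by replicate. Middle, median log2 level of genes above 60% GC minus that of genes of at most 40% GC, relative to the 5 references, with a line at each group mean; PSAT1-column libraries lie at 0.09 to 0.33. Right, CPM of AC104306.1 on a log axis, with control 1 and both Nap libraries at 21.8 to 28.5 CPM and the other 5 libraries at or under 2.01 CPM.

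For Nap alone against control, of 13002 protein-coding genes 0 (0%) were called by edgeR and 0 by DESeq2, which called 1 noncoding gene. An unadjusted p under 0.05 was reached by 92 genes (0.708%), and the groups did not overlap in 1392 (10.7%). The 92 were 356 without control replicate 2, 182 without control replicate 3, 155 without Nap replicate 1 and 192 without Nap replicate 2. The homeobox factor VAX1 had the smallest p, at 1.19 and 1.63 CPM with Nap against 2.79, 2.59 and 3.75 CPM in controls. PSAT1-column libraries, at 2.37, 3.09 and 2.87 CPM, lay within the control range or just below it. ITPKA, a kinase of inositol trisphosphate, was at 0.633 and 0.950 CPM with Nap, 1.91, 1.85 and 1.73 CPM in controls and 2.05, 1.95 and 2.75 CPM in PSAT1-column libraries. For both genes the PSAT1-column libraries were on the side of the controls, and neither passed (adjusted p of 1 in edgeR's test).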

How the data were processed

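Total RNA was made into stranded libraries and read from 1 end over 75 bases. The authors trimmed the reads with Cutadapt, aligned them with Subread keeping unique alignments, ran featureCounts against the genes of GENCODE 31 and deposited whole-number counts without normalization. Tool versions and the strand setting are not given in the sources used here, so overlapping and antisense genes are uncertain. DESeq2 was the authors' own test.

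Groups followed the column names. Counts were scaled with TMM, filtered with filterByExpr (minimum count 10) and tested with robust quasi-likelihood fits in edgeR 4.0.16 (R 4.3.3). Only the groups compared entered a fit, p-values were adjusted over all genes tested, and calls (adjusted p under 0.05) were counted over protein-coding genes. Both set the difference between groups against the spread between these cultures. DESeq2 1.42.0 was an alternative. The other alternatives were RLE and upper-quartile normalization, other filters, a fit over all 6 groups, a block for the replicate number, other references and each replicate left out. A GC spline (5 degrees of freedom), grouping by title and all alternatives for single genes and lists beyond those planned were chosen after seeing the data. The script was tested on simulated data. CPM values other than the detection floor are TMM-scaled. All 17 columns were matched to a sample.

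Names and positions came from GENCODE 29 on GRCh38, which holds 58587 of the 60662 genes, 43963 of them in the same version. A table of names gave 2054 more, and 21 had none. Pseudogenes were aligned with Biopython 1.88, and GC content was that of the longest transcript.

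Members and gene lists were chosen with earlier results of these data known. The text names PSAT1, the 10 genes of smallest p in each direction outside all 5 references, 3 in each direction in the other comparisons and for noncoding genes, and list members of smallest p. Other genes were named after their values were seen. A few genes that this rule names are not reported here.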

Additional observations from a re-analysis of the deposited data

How the results depend on the processing

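Between PSAT1-column and control libraries the count of protein-coding genes called was 0 with DESeq2, RLE, upper-quartile scaling, a minimum of 10 counts in each sample, a fit over all 6 groups, a GC spline, and control and Nap together as the reference. It was 8 without a filter on low counts, 0 to 3 with 1 library left out, the 3 without PSAT1-column replicate 1, and 8172 (1858 beyond 1 log2 unit) with groups set by the sample titles. List members called were 1 without a filter and 0 to 1 with 1 library left out, the 1 being NOTCH1. The replicate number as a block gave 19 calls there, 1 of them a list member, and 0 with a GC spline added. Of the 20 named genes, 6 passed under the block. The results above did not take these numbers as pairs. Same-numbered PSAT1-column and control cultures had correlations of 0.0494, 0.182 and -0.0822 in their deviations over 15754 genes. With 3 libraries in a group, such correlations cannot tell whether the numbers mark pairs or a batch. With Nap, which has only numbers 1 and 2, same-numbered cultures correlated at 0.244 and 0.269 for PSAT1-column libraries and at 0.26 and 0.316 for controls, and whether those numbers mark shared cultures is not given in the sources used here. PSAT1-column libraries 1 and 2 correlated best with the controls numbered 3 and 2. On component 1 the replicates numbered 1 lay from -10.8 to -8.84 and those numbered 2 from 10.2 to 15.1, in every group. Libraries 1 and 2 were thus separated there by number and not by group. Whether the numbers mark a batch was not tested.

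Against Nap the count was 1 with DESeq2, 72 without a filter, 92 with the replicate block and 12 with the block and a GC spline, and 0 to 71 with 1 library left out, the 71 without PSAT1-column replicate 1. For Nap against control the replicate block gave 19 calls, the block with a GC spline 12, and leaving out 1 library 0 to 1, the 1 without control replicate 2. The median of the P4-lower genes was -0.029 to 0.135 with 1 library left out, the lowest without control replicate 1 and the highest without control replicate 2. That of the P4-higher genes was -0.0054 with Nap as the reference. The fold change of PSAT1 kept its sign in every setting run, from -0.17 to -0.05. The counts of genes at an unadjusted p under 0.05 ran from 244 to 1266 for PSAT1-column against control, 391 to 1243 against Nap and 111 to 356 for Nap against control with 1 library left out. The causes of these shifts were not tested. The design has 3 cultures against 3 or 2, and titles that contradict the column names. In the fit with the low-count filter and no block, small changes in protein-coding genes could not be told from the spread between libraries. The replicate block called 19 protein-coding genes against control and 92 against Nap, and with a GC spline added 0 and 12. Which of these fits describes the cultures was not tested.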
